A study of Danio rerio with 6 samples.

Results

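H3K9ac, the acetylated form of lysine 9 on histone H3, was compared between zebrafish hearts 6 days after the ventricle tip was cut off (6 dpa, days post amputation) and uncut hearts. The comparison rests on the peak lists of 1 library a side: 16264 peaks in the uncut library and 17525 at 6 dpa, together 33789 of the 66487 peaks in the 6 libraries of the series, once repeated annotation rows were dropped. Both libraries were chromatin immunoprecipitation sequencing (ChIP-seq) of heart tissue from fish aged 1 to 1.5 years, made from sonicated nuclei with an antibody to H3K9ac. The other libraries of the series map the same mark at 9 dpa and H3K9me3, a mark of silent chromatin, at all 3 times. Strain, sex, the number of hearts in a library and the control library of the peak caller are not given in the sources used here. With 1 library a side there is no replicate check and no test between the times, so each difference below is one between 2 libraries, with an error that covers counting alone.

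Acetyl groups on H3K9 are placed by acetyltransferases such as those of the Kat2 family, removed by histone deacetylases, and read by bromodomain proteins. The mark sits around the start sites of genes that are active or ready to be, and at many enhancers. After the ventricle tip is removed, the zebrafish heart closes the wound with a clot, the epicardium and endocardium respond over the first days, and heart muscle cells then divide to replace the lost muscle. Tissue at 6 dpa is therefore a mixture of uninjured muscle, wound and dividing cells. In such a bulk sample, fewer cells of a type and less acetylation per cell cannot be told apart.

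The 2 libraries differed in background as well as in peaks. Per kb, the most frequent local density against which peaks were scored was 14.63 reads uncut and 11.25 at 6 dpa. It is called the background here, though only 6.64% and 6.65% of peaks were scored against it and the others against other local densities. In all, peaks held 5.03 and 6.48 times that background. Peaks covered 25.84 Mb with 1902151 tags (reads) uncut and 28.34 Mb with 2066547 tags at 6 dpa. Promoter peaks, those within 2 kb of a transcription start site (TSS), were 47.7% and 46.8% of the lists. Of 8 heart muscle markers, the lists named 5, and all 5 had a promoter peak uncut and 4 at 6 dpa, with 536 and 237 tags in sum. The 4 erythrocyte markers had peaks at 3 genes in both libraries, with 705 and 897 tags. Single named markers of epicardium (wt1b), leukocytes (coro1a) and skin (krt4) had no peak uncut and 43, 39 and 66 tags at 6 dpa, while the other 7 markers of other tissues were not named in the lists. Nor were the epicardial markers tcf21 and tbx18 and the leukocyte markers mpx, lcp1 and ptprc. A marker with no annotated peak in any list cannot be named, so these single genes do not show a gain of a cell type.

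Most acetylated sites were marked in both hearts, and promoters far more than other sites. Overlapping peaks merged into 19761 loci. Of these, 13904 had a peak in both libraries, 3555 (18.0% of all loci) at 6 dpa only and 2302 (11.6%) uncut only. At promoters 89.3% of 8388 loci were shared, against 59.1% of the 9259 loci with no annotated gene, 56.1% of 556 over an exon, an untranslated region or a gene end, and 40.3% of 1558 lying in introns alone. By list, 97.0% of uncut promoter peaks had a 6 dpa peak (95% Wilson interval 96.6 to 97.4), and 91.9% of 6 dpa promoter peaks had an uncut peak (91.3 to 92.5). Outside promoters these shares were 75.7% (74.8 to 76.6) and 69.0% (68.1 to 69.9).

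**Figure D1:**
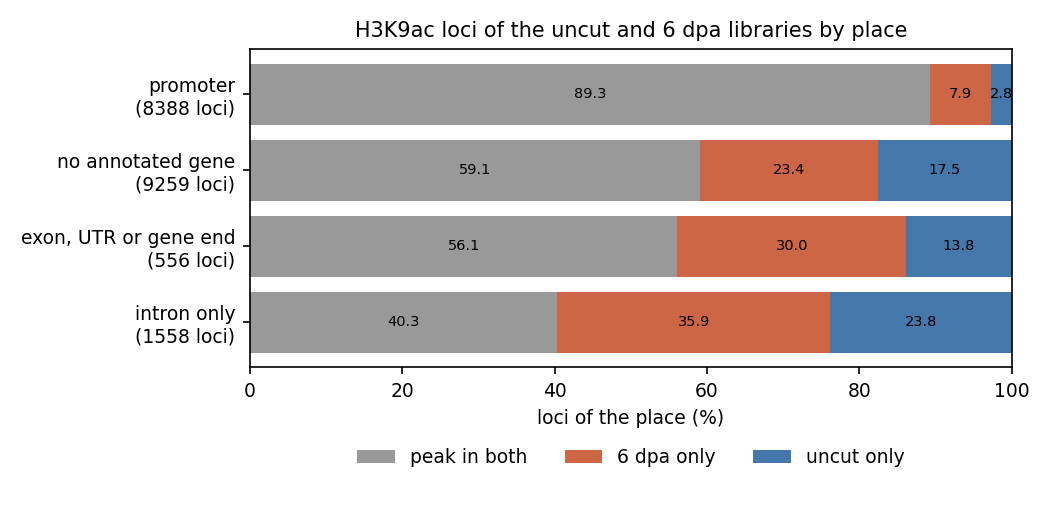
Share of H3K9ac loci (x axis, %) with a peak in both libraries, at 6 dpa only or uncut only, for 4 kinds of place (y axis, number of loci in brackets). Promoter loci were shared in 89.3% of cases and loci in introns alone in 40.3%.

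Loci of 1 library were weak. Their median tag count was 41 at the 6 dpa only loci and 44 at the uncut only loci, against 109 at 6 dpa at shared loci. The authors' score is a peak's p as its −log10, times 10, and it was under 100 in 86.2% and 85.5% of them. At its background of 14.63 reads per kb, the uncut library needed 34 tags in a peak of 1 kb to reach the lowest listed score, 50. The 6 dpa library needed 28. Of the 3555 loci found at 6 dpa only, 1381 (38.8%) held so few tags that the same level, scaled to the uncut library, would not have reached that score against the uncut background. For the 2302 loci found uncut only the number in the other direction was 0, which the lower floor of the 6 dpa library sets in advance. Over all loci, the larger number at 6 dpa therefore cannot be told apart from the lower background of that library. Lists of equal length (ranked by score) left 2637 loci at 6 dpa only and 2639 uncut only. As nearly all shared loci hold 1 peak of each list, equal lengths force nearly equal numbers, and nothing is drawn from them. At promoters 158 of the 663 loci (23.8%) were under the uncut floor, against 232 promoter loci found uncut only. By gene, lists of equal length left 501 with a promoter peak at 6 dpa only and 247 uncut only.

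How often a peak was shared followed its score closely. Among 6 dpa promoter peaks the share with an uncut peak was 46.4% in the lowest quintile of scores, 77.3% in the second, 96.8% in the third and 99.9% in the highest. Outside promoters it went from 33.5% to 99.8%. Uncut promoter peaks of the lowest quintile were shared in 80.3% of cases and those of the highest in 2094 of 2094. The distance between promoter and other peaks was thus wide among weak peaks and nearly closed among strong ones.

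**Figure D2:**
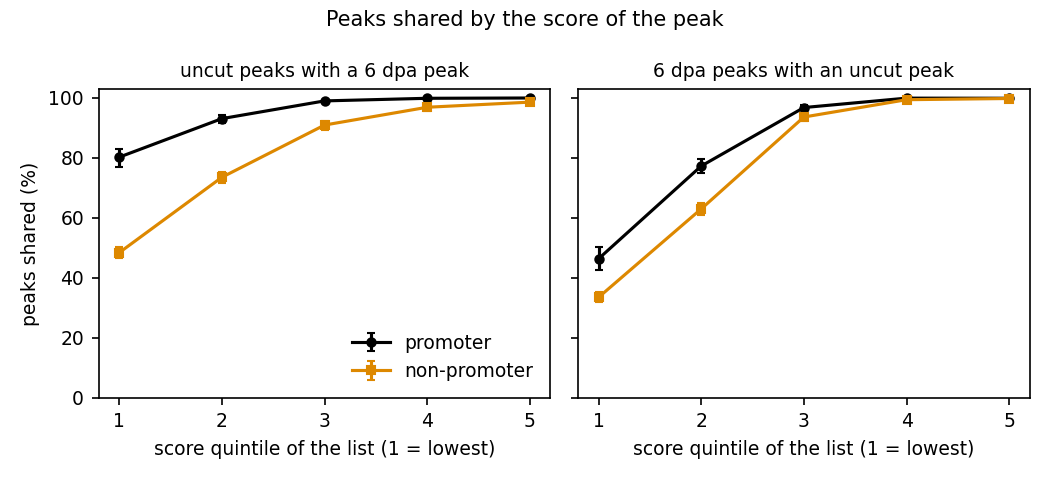
Share of peaks (y axis, %) that overlap a peak of the other library, by quintile of the authors' score within each list (x axis). Points are shares and bars 95% Wilson intervals; in both lists the share rises with the score, and promoter peaks lie above non-promoter peaks in the lower quintiles (80.3% against 48.4% in the lowest quintile of the uncut list).

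At shared loci the mark kept its place. In the 13794 loci with 1 peak of each library, the summit moved by a median of 50 bp and by at most 200 bp in 84.2% of loci. Median tags were 105 uncut and 109 at 6 dpa, median length 1538 and 1575 bp, and median density 66.0 and 67.0 tags per kb. All ratios below are log2 values of 6 dpa over uncut after the median over shared loci was taken off, which was 0.08 for tags, 0.04 for length and 0.02 for tags per kb. Scaled to the 2 backgrounds instead, each log2 ratio of tags would be 0.46 higher and each ratio of tags per kb 0.40 higher, so values here say how a locus stood relative to the median locus and not whether acetylation as a whole went up or down.

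Few shared loci moved far from that median. Among 13583 loci with at least 30 tags in each library, tags were past 2-fold higher at 66 (0.486%) and past 2-fold lower at 240 (1.77%). For length the numbers were 72 (0.53%) and 74 (0.545%), and for tags per kb 3 (0.0221%) and 22 (0.162%). Changes of tags were thus mostly changes in how far the peak reached: in 209 of the 306 loci past 2-fold in tags, the length part of the log2 ratio was the larger one. Tags were higher beyond the counting error (by more than 1.96 Poisson standard errors) at 1987 loci (14.6%) and lower at 1930 (14.2%). The central 68% of log2 tag ratios spanned 0.33 to either side at promoters and 0.41 elsewhere, against median counting errors of 0.19 and 0.22, and what this excess consists of cannot be told without replicates.

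Promoters stood slightly above other sites in density. The median log2 ratio of tags per kb was 0.05 over 7493 promoter loci (quartiles -0.15 and 0.23) and -0.07 over 6411 non-promoter loci (-0.28 and 0.14), and 57.0% and 41.8% of them were above 0. Loci in introns alone had the lowest median of the 4 places, -0.15. The ratio also depended on how strong a locus was: promoter medians went from -0.17 in the quintile with the fewest tags to 0.17 in the quintile with the most, and non-promoter medians from -0.23 to 0.10. When each locus was set against others of the same tag level, the medians were 0.01 at promoters and -0.02 elsewhere. Between loci of like strength, promoters and other sites thus lay closer together.

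**Figure D3:**
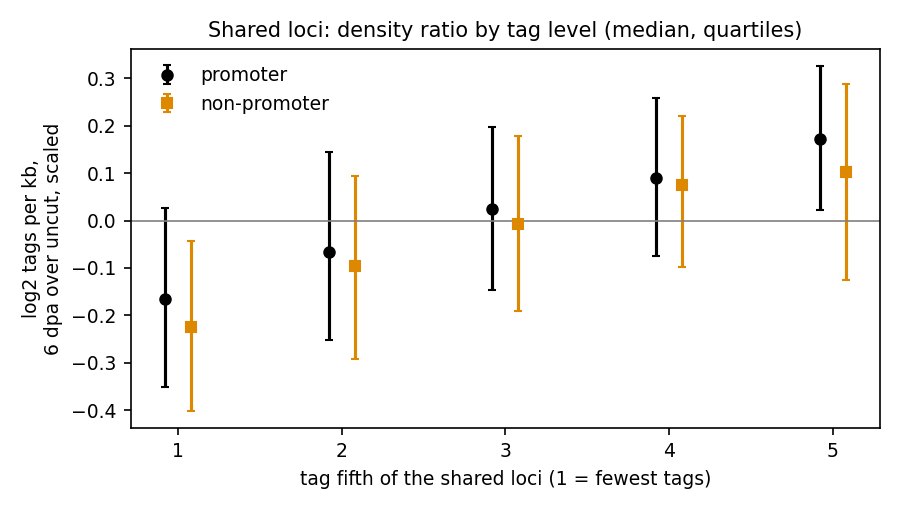
Median log2 ratio of tags per kb, 6 dpa over uncut, scaled to the median shared locus (y axis), by quintile of tag level (x axis); bars are quartiles over loci, not errors. Weak loci lie below 0 and strong loci above it, from -0.17 to 0.17 at promoters and from -0.23 to 0.10 elsewhere.

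By gene, 10067 genes were named in the lists, and 8150 had a promoter peak in both libraries. A promoter peak was present at 6 dpa only in 599 (5.95%) and uncut only in 189 (1.88%). These genes had median tags of 45 and 56, against 134 at 6 dpa for genes marked in both, and 133 of the 599 and 31 of the 189 had a score of at least 100. Relative to the median gene, tags were higher beyond counting error at 1132 of the 8150 genes (13.9%) and lower at 1251 (15.3%). They were past 2-fold higher at 52 (0.638%) and lower at 119 (1.46%), and for tags per kb at 1 (0.0123%) and 12 (0.147%). On the background scale all gene values of tags are 0.49 higher, and 5204 genes (63.9%) were then higher beyond counting error and 139 (1.71%) lower. Genes lower on both scales are named as such below.

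The promoter loci with most tags at 6 dpa and no uncut peak included genes of ion transport, matrix and growth factor signalling. The locus of atp1b1a, a subunit of the sodium pump (chr6:29225515-29229778, danRer10), had 543 tags over 4264 bp. That of anp32b, an acidic nuclear phosphoprotein, had 501 tags and the highest score of these loci, 451. On chromosome 22, mibp, a muscle integrin-binding protein (501 tags), and the neighbouring lysyl oxidase gene loxl5a (338 tags) lay side by side. The promoter of igfbp1a, which encodes a binding protein of insulin-like growth factors (chr20:6821976-6824696), had 254 tags and a score of 386, and its nearest uncut peak was 37076 bp away. Further loci were those of tgif1, a corepressor in TGF-beta signalling (297 tags), mir101a, a microRNA gene (293), hn1l (235), and aplnrb, an apelin receptor of vessels and early heart (184). Uncut peaks lay 497 bp from the locus at mir101a and 1218 bp from that at hn1l, so both promoters were marked at both times, with 302 and 646 tags in sum at mir101a and 128 and 384 at hn1l. At 9 dpa, peaks overlapping these loci held 565 tags at atp1b1a, 961 at anp32b, 282 at tgif1, 266 at igfbp1a and 222 at aplnrb. No 9 dpa peak overlapped the loci of mibp or loxl5a.

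A locus with many tags and no partner need not be a strong gain. The local density against which these peaks were scored was 2.54 times the background at aplnrb, 3.23 times at igfbp1a and 7.80 times at atp1b1a. Scores of loxl5a, mir101a and hn1l were between 61.1 and 87.7 in spite of their tags. At klf1, the regulator of red cell genes, the 6 dpa peak of 232 tags and an uncut peak of 174 tags lay 514 bp apart on chromosome 6, so this promoter is counted once in each direction and was acetylated at both times. Of the promoter loci found in 1 list, 58 of 663 (8.75%) at 6 dpa and 39 of 232 (16.8%) uncut lay within 1 kb of a peak of the other list. Ranked by score, a choice made after the values were seen, the first 10 at 6 dpa also held trps1 (113 tags), tbc1d19 (55), sfxn5b (55), mir733 (62), the actin regulator arpc1b (179), the transcription factor sox4b (163) and the FGF receptor fgfr4 (74).

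Among the promoter loci with most tags uncut and no overlapping 6 dpa peak, that of nt5dc2 had 417 tags with a score of 56.3. The repressor gene zeb2a had 293 tags, the ferritin receptor gene ncoa4 282, the splicing factor gene sfrs3a 252, and qkia, an RNA-binding protein gene, 215 (chr17:27706110-27708853, score 188). The zinc finger gene sall1a had 215 tags, mapkapk2a, a kinase of the p38 pathway, 199, armc1 143 and the ribosomal protein gene rpl21 142. A 6 dpa peak lay 197 bp from the locus at mapkapk2a, 398 bp at rpl21, 1123 bp at ncoa4 and 1546 bp at armc1. Summed over their promoters, these 4 genes had peaks in both libraries, with 361 and 237 tags at mapkapk2a, 283 and 135 at rpl21, 502 and 246 at ncoa4 and 320 and 236 at armc1. At 9 dpa, set beside the uncut library, peaks overlapping the loci of zeb2a, sfrs3a, rpl21 and qkia held 535, 316, 130 and 390 tags. The loci of nt5dc2, sall1a, mapkapk2a and armc1 had no overlapping peak. Tags are counted over the whole of a 9 dpa peak, inside the locus or not. At ncoa4 the same 848 tags also count for an intronic 6 dpa only locus of this gene, so they are not those of the promoter locus alone. By score, mir734 was first with 70 tags at a score of 245, and 67 tags at 9 dpa.

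Among shared promoters, the highest ratios of tags per kb came mostly with narrower peaks, which a division by peak length favours. At kat2b, which encodes an acetyltransferase of H3K9 itself (chr19:21139322-21141987), tags were 191 uncut and 220 at 6 dpa while the peak went from 2666 to 1610 bp, so the density was 71.6 and 136.6 tags per kb and the log2 ratio 0.91 with a counting error of 0.14. The ubiquitin ligase gene znrf2a had the highest value, 1.15, from 39.1 and 87.9 tags per kb. The others were gpatch3 (0.99), sssca1 (0.95), march8 (0.94), ggps1 (0.92), tmem165 (0.88) and slc30a9, a zinc transporter gene (0.87). Of these 8, march8 was the one whose length ratio was above 0, and its tags were 59 and 121.

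The lowest densities belonged to genes of splicing and mitochondria, with peaks of like width. The promoter shared by nhp2l1b, a spliceosome protein gene, and uqcrc2b, of respiratory complex III, had 97 tags over 1122 bp uncut and 41 over 1180 bp at 6 dpa, a log2 ratio of tags per kb of -1.33 ± 0.27 (counting error of tags). The splicing genes snrpb (103 and 50 tags, -1.20) and u2af1 (84 and 47, -1.02) followed the same pattern. So did nars2, the mitochondrial asparagine tRNA ligase gene (89 and 41, -1.08), sco2, of cytochrome oxidase assembly (68 and 31, -0.99), kctd9a (125 and 52, -1.07) and camk2n1a (113 and 70, -0.99). At these 7 the ratio stayed below 0 on the background scale, between -0.94 at nhp2l1b and -0.59 at sco2 and camk2n1a, and at 9 dpa their tags were between 69 and 116.

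Ranked by tags in place of density, a choice made after the values were seen, the heart stood out at the lower end. The promoter of mb, the myoglobin gene (chr1:54459899-54463796), had 261 tags over 3898 bp uncut and 64 over 1313 bp at 6 dpa, a log2 ratio of -2.11 ± 0.20, the lowest by this ranking, and no peak was listed at 9 dpa. Myoglobin stores oxygen in heart muscle. The adaptor gene nedd9 had 190 and 52 tags (-1.95) and hsp70, a heat shock gene, 113 and 38 (-1.65). Next came tbx20, a transcription factor of heart muscle, with 189 and 68 (-1.56), vmhcl, a ventricular myosin heavy chain, with 146 and 54 (-1.52), klf7a (-1.43) and srsf4 (-1.38). At the upper end were the prostaglandin receptor gene ptger4b (40 and 126 tags, 1.57), adka, an adenosine kinase gene (68 and 198, 1.46), tiprl (49 and 117, 1.17) and boc (57 and 132, 1.13). Most of the 8 highest were longer at 6 dpa: that of adka went from 1074 to 2790 bp. Tags are summed over the peak, so this ranking favours peaks whose length changed.

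Sarcomere genes, which encode the contractile filaments of muscle, had the lowest median of tags of the 21 gene lists examined. Of 41 genes in the list 19 were named, 16 of which had a promoter peak uncut and 11 at 6 dpa. Peaks of csrp3 (76 tags), nexn (78), tnnt2a (67), tnnc1a (60), ldb3b (50) and unc45b (45) were listed uncut only, that is 6 of 19 genes where 1.88% of all genes did so, and smyd1b (27 tags) had one at 6 dpa only. None of these scores reached 100. Of uncut promoter peaks in the 2 lowest score quintiles, 80.3% and 93.1% had a 6 dpa peak. The 1.88% over all genes is thus not a share of peaks of like strength. The troponins tnnt2a and tnnc1a belong to the calcium switch of the thin filament, and csrp3, nexn and ldb3b to the Z-disc. At 9 dpa the 6 promoters all had a listed peak, with 104 tags at csrp3, 82 at nexn, 64 at tnnt2a, 102 at tnnc1a, 45 at ldb3b and 54 at unc45b.

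The 10 sarcomere genes marked in both libraries had a median log2 ratio of tags of -0.70 and of tags per kb of -0.31, where the median of all genes is 0. On the background scale these medians were -0.21 and 0.14, so the density changes side. Tags were lower beyond counting error at 6 of the 10 genes and higher at 1, against 15.3% and 13.9% of all genes. The myosin gene vmhcl had 146 tags uncut and 54 at 6 dpa (-1.55 ± 0.23), the tropomyosin gene tpm4a 273 and 146 (-1.01 ± 0.15), and mybpc3, the cardiac myosin binding protein, 63 and 30 (-1.18 ± 0.32). These 3 were also lower on the background scale. The light chains cmlc1 (123 and 74 tags) and myl7 (89 and 61) and the Z-disc gene pdlim5b (119 and 77) were lower on the median scale alone, and tpm1 had more tags at 6 dpa (94 and 135, 0.41 ± 0.19).

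**Figure D4:**
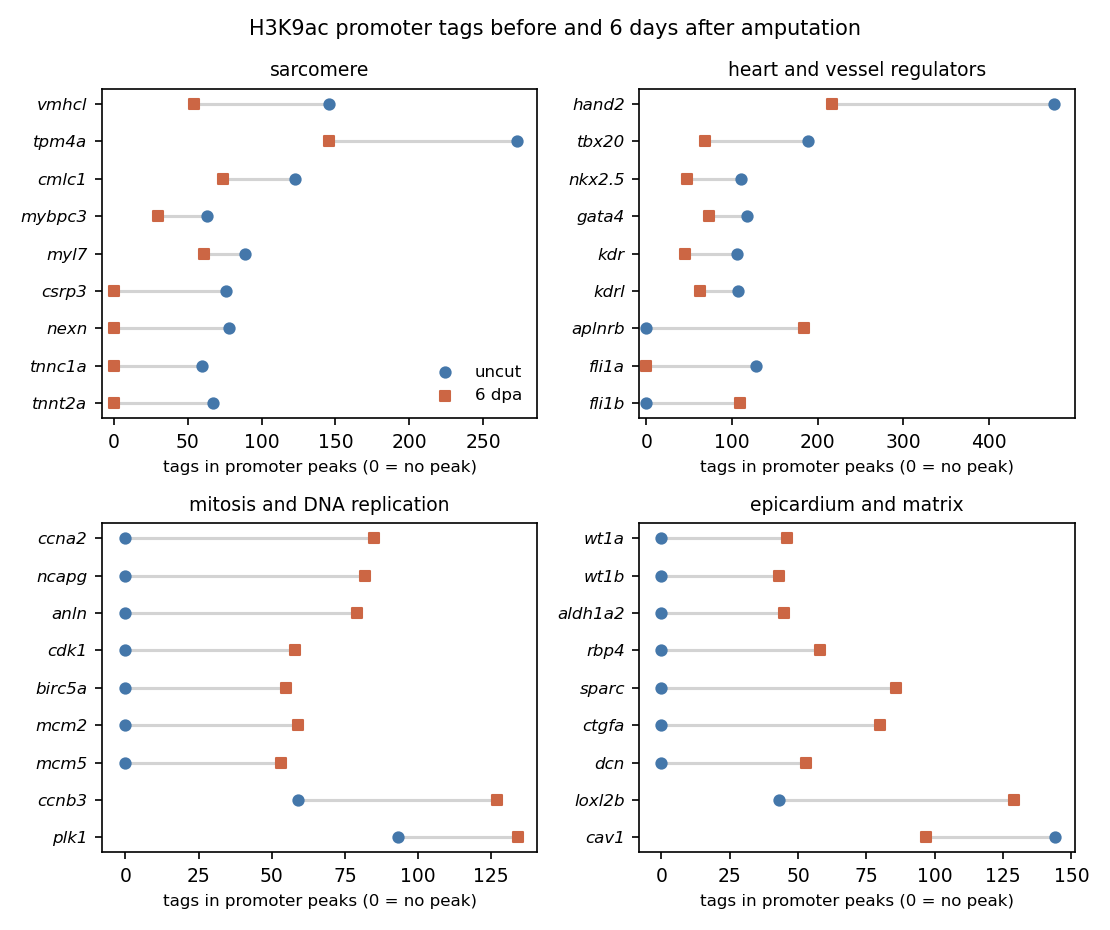
Tags in promoter peaks (x axis; 0 means that no peak was listed) of 9 genes in each of 4 groups (y axis), uncut (circles) and at 6 dpa (squares); genes were picked with their values known. Sarcomere genes lie to the left at 6 dpa (vmhcl 146 and 54 tags), while ccna2 (0 and 85), anln (0 and 79) and sparc (0 and 86) have a peak at 6 dpa only.

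Calcium handling genes were sparsely marked. Of 11 named genes 5 had a promoter peak uncut and 7 at 6 dpa, and all 4 marked in both were below 0 in tags (median -0.30, and 0.19 on the background scale). The sarcoplasmic calcium pump gene atp2a2a had 156 and 96 tags (-0.81 ± 0.19). The junction gene jph2 (49 tags) had a peak uncut only, and casq2, a calcium store protein gene (45 tags), cx43, a gap junction gene (47), and camk2d1 (27) at 6 dpa only. That is 1 and 3 of 11 named genes, against 1.88% and 5.95% of all genes. The 3 scored between 51.3 and 55.4, near the lowest listed score of 50, and jph2 scored 82.1. The shares over all genes are thus not ones of like strength.

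Heart transcription factors differed in both directions. Of 21 named, 17 had a promoter peak uncut and 18 at 6 dpa, and the 15 marked in both had medians of -0.32 in tags and -0.27 in tags per kb (0.17 and 0.18 on the background scale). Lowest stood genes that direct heart muscle fate: hand2 had 476 and 217 tags (-1.24 ± 0.12), tbx20 189 and 68 (-1.59 ± 0.20) and nkx2.5 111 and 48 (-1.32 ± 0.25). They were also lower on the background scale, and each changed mainly by length, the peak of hand2 having a density ratio of 0.14. At 9 dpa they had 577, 170 and 169 tags. The factors gata4 (117 and 73 tags), gata6 (274 and 228) and tead1a (116 and 83) were lower beyond counting error on the median scale. Higher were nr2f1a, linked to atrial identity (120 and 239 tags, 0.88 ± 0.16), tbx2b (99 and 150) and the flow-responsive factor gene klf2a (137 and 185), and nr2f2, a relative of nr2f1a, had a peak of 121 tags at 6 dpa only, as did tbx2a (49) and srfb (28). Peaks of isl1, a factor of heart progenitors (86 tags, score 121), and mef2ca (32 tags) were listed uncut only. By presence, 3 of 21 named genes were marked at 6 dpa only and 2 uncut only, against 5.95% and 1.88% of all genes. Scores reached 100 at 0 of the 3 and 1 of the 2. Of the 15 marked in both, 3 were higher beyond counting error and 6 lower, against 13.9% and 15.3% of all genes.

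All 12 genes of the endothelial list marked in both libraries lay below the median gene in tags, though their median was above 0 on the background scale. The 12 include kcnh6a (113 and 93 tags), a potassium channel gene that is also counted in the calcium handling list. Lower beyond counting error were 4 of 12, against 15.3% of all genes, and none was higher, against 13.9%. They were the growth factor receptor genes kdr (106 and 45 tags, -1.35 ± 0.26) and kdrl (107 and 63, -0.88 ± 0.23), the junction gene esama (101 and 59) and the scavenger receptor gene stab1 (63 and 36). Of these, kdr alone was lower on the background scale too. The related receptor gene flt1 (55 and 45 tags, -0.40 ± 0.29) stayed within counting error. The list's median was -0.40 in tags and -0.31 in tags per kb (0.09 and 0.14 on the background scale, -0.26 and -0.15 at equal tag level). The paired ETS factor genes differed in kind: fli1a had 128 tags uncut and no peak at 6 dpa, and fli1b no peak uncut and 109 tags at 6 dpa. With fli1b, the apelin receptor gene aplnrb (184 tags), the angiopoietin receptor gene tek (48) and clec14a (51) had a peak at 6 dpa only. That is 4 of 21 named genes, with 1 uncut only, against 5.95% and 1.88% of all genes. The score reached 100 at 1 of the 4. The 5 heart muscle markers (536 and 237 tags in sum) and the 3 endothelial ones (300 and 129) are members of the sarcomere, heart factor and endothelial lists. Their sums thus repeat these values and give no separate reading of cell content, whose part in the lists was not tested. A promoter without a listed peak counts as 0 in them, as at 6 dpa for tnnt2a (67 tags uncut) and fli1a (128).

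Epicardial and retinoic acid genes more often had a listed peak at 6 dpa. Of 15 named genes 7 had a promoter peak at 6 dpa only, against 5.95% of all genes, and mdka (66 tags) uncut only. They were the epicardial transcription factor genes wt1a (46 tags) and wt1b (43), aldh1a2, whose enzyme makes retinoic acid (45), rdh10a (36) and rbp4 (58), of retinol supply, and the retinaldehyde reductase genes dhrs3a (56) and dhrs3b (41). All 7 scored under 100, so these are peaks near the listing threshold. Of 6 dpa promoter peaks in the 2 lowest score quintiles, 46.4% and 77.3% had an uncut peak, and the uncut library needed more tags to list one. The share over all genes is therefore not one of peaks of like strength. The 6 genes marked in both had a median of -0.08 in tags (0.41 on the background scale), with rarga, a retinoic acid receptor, higher (113 and 178 tags) and cav1 lower (144 and 97). At 9 dpa, aldh1a2 had 76 tags, rbp4 58, dhrs3a 63 and dhrs3b 55, and wt1a, wt1b and rdh10a had no listed peak.

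Matrix genes followed with 6 of 19 named genes marked at 6 dpa only and col5a2a (89 tags) uncut only, against 5.95% and 1.88% of all genes. The 6 were sparc, a collagen-binding matrix protein (86 tags), ctgfa, a connective tissue growth factor (80), dcn, a collagen proteoglycan (53), timp2b, a protease inhibitor (40), fn1b, a fibronectin (38), and vcanb (28). The score was 102 at the highest of them and under 100 at the other 5, so here too the share over all genes is not one of like strength. At loxl2b, a lysyl oxidase that crosslinks collagen, tags were 43 and 129 (1.47 ± 0.25), the one gene of the list past 2-fold, and its length accounted for nearly all of it (density ratio -0.02). The matrix protease gene mmp2 was lower beyond counting error (58 and 42, -0.58 ± 0.29). Of the 9 genes marked in both, 6 lay below 0 in tags, with a median of -0.09 (0.40 on the background scale). The collagen genes col1a1a (62 and 80 tags) and col1a2 (108 and 112) stayed within counting error.

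Genes of mitosis differed in listed peaks in 1 direction. Of 40 named genes 25 had a promoter peak uncut and 35 at 6 dpa: 10 were marked at 6 dpa only (25%, against 5.95% of all genes) and 0 uncut only. They held the cyclin A gene ccna2 (85 tags), the condensin subunit gene ncapg (82), the cytokinesis genes anln (79) and ect2 (60), the mitotic kinase gene cdk1 (58), birc5a, of the chromosomal passenger complex (55), the spindle midzone gene prc1b (54), the checkpoint gene bub3 (43), spc24, of the kinetochore (31), and LOC325449 (51). Scores were between 57.5 and 148 and reached 100 at 3 of them. Weak 6 dpa promoter peaks often had no uncut peak: 46.4% had one in the lowest score quintile and 77.3% in the second. The share over all genes is thus not one of peaks of like strength, and the part of the higher uncut floor in this excess was not tested. Of the 25 marked in both, ccnb3 (59 and 127 tags, 1.00 ± 0.23), cenpk (117 and 161) and plk1, the polo kinase (93 and 134), were higher beyond counting error and nusap1 (84 and 61) lower. The medians were 0.12 in tags and 0.01 in tags per kb (0.61 and 0.45 on the background scale).

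DNA replication genes were more evenly divided. The replicative helicase genes mcm2 (59 tags), mcm3 (46) and mcm5 (53) and their loader cdc6 (49) had a peak at 6 dpa only, and mcm10 (61), pold1 (76) and rfc4 (43) uncut only, that is 4 and 3 of 42 named genes, against 5.95% and 1.88% of all genes. Of 33 marked in both, 5 were higher beyond counting error and 5 lower, near the 13.9% and 15.3% of all genes. The higher ones held gmnn, the licensing inhibitor geminin (183 and 273 tags, 0.47 ± 0.14), and mcm7 (96 and 141, 0.44 ± 0.19). The lower ones held rpa1, of the single-strand binding complex (150 and 104, -0.64 ± 0.18), and rfc5, of the clamp loader (136 and 88, -0.74 ± 0.20). The median was -0.05 in both measures (0.44 and 0.40 on the background scale), and pcna, the clamp itself, had 137 and 162 tags (0.13 ± 0.17). Among 24 regulators of the G1 phase, cyclin E gene ccne1 (49 tags) and the repressor gene e2f7 (33) had a peak at 6 dpa only. That is 2 of 24, against 5.95% of all genes, and both scores were under 100. Of 22 marked in both, 3 were higher beyond counting error and 2 lower, against 13.9% and 15.3% of all genes. The CDK inhibitor gene cdkn1ba (270 and 432 tags, 0.57 ± 0.11) and the E2F partner gene tfdp1a (217 and 397, 0.76 ± 0.12) were higher, and cdk2 (250 and 203) and cdkn2c (230 and 163, -0.61 ± 0.15) lower.

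**Figure D5:**
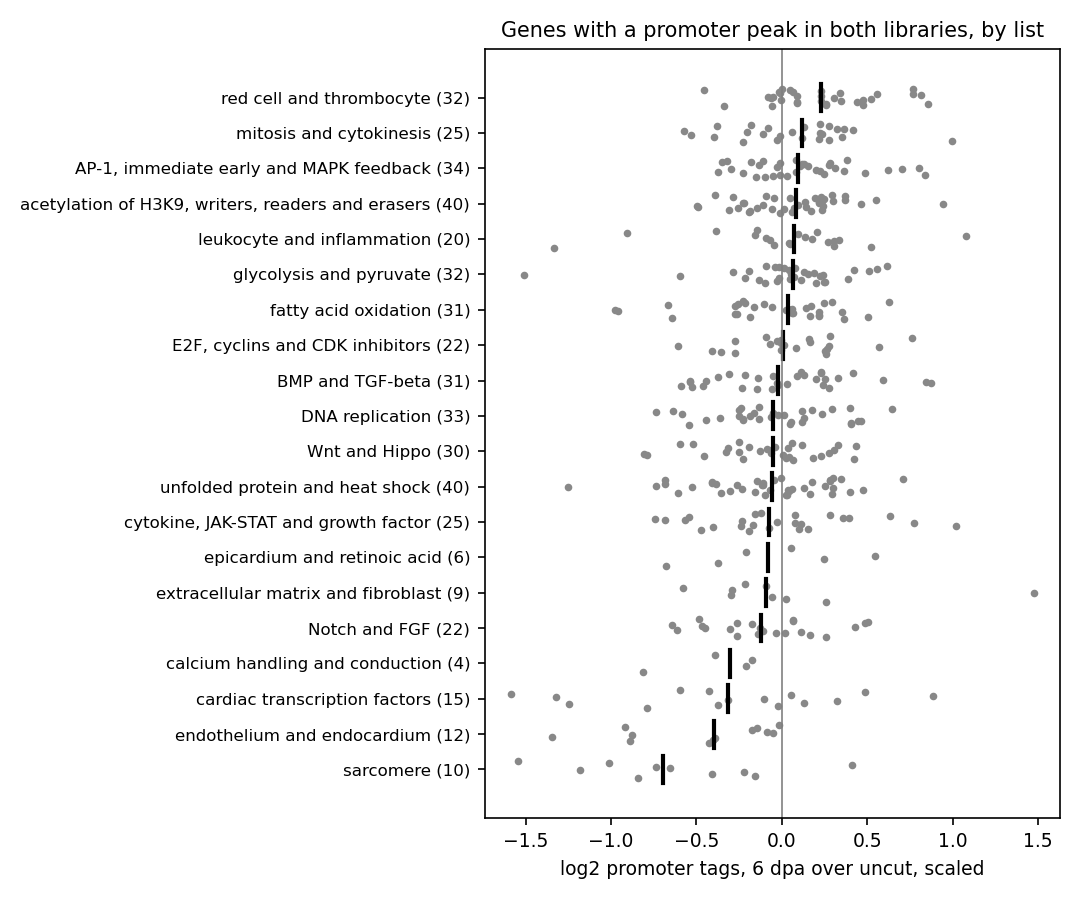
Log2 ratio of promoter tags, 6 dpa over uncut, relative to the median gene (x axis), of each gene marked in both libraries (points), by gene list (y axis, number of such genes in brackets; lists with at least 4); bars are list medians. The sarcomere median lies at -0.70 and the red cell median at 0.23. On the background scale all values move up by 0.49, which puts 20 of the 21 list medians of tags above 0, the sarcomere list being the exception.

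Among immediate early genes, which answer to stress and growth signals within minutes, more were higher beyond counting error than lower. Of 34 genes marked in both, 10 were higher beyond counting error and 2 lower, against 13.9% and 15.3% of all genes. The largest were btg2, an antiproliferative factor (154 and 297 tags, 0.84 ± 0.14), the AP-1 subunit gene junba (127 and 239, 0.80 ± 0.16), ier5l (91 and 160) and ier2 (262 and 436, 0.62 ± 0.11). The MAP kinase phosphatase gene dusp1 had 335 and 508 tags and fosl2 179 and 249. Both jun (445 and 391, -0.30 ± 0.10) and mycb (261 and 221) were lower, fos (117 and 134) stayed within counting error, and fosb had a peak of 98 tags uncut only. The list's medians were 0.09 in tags and -0.05 in tags per kb (0.58 and 0.39 on the background scale). At equal tag level these medians were 0.04 and -0.10. Its genes were strongly marked, with a median of 215 uncut tags against 125 over all genes. The density ratio was 0.37 at dusp1 and 0.34 at fosl2 but -0.20 at btg2 and -0.06 at ier2.

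Cytokine and growth factor genes split by member. Of 25 genes marked in both, 5 were higher beyond counting error and 6 lower, near the 13.9% and 15.3% of all genes. Higher beyond counting error were stat3 (153 and 256 tags, 0.63 ± 0.15) and jak2a (144 and 266, 0.77 ± 0.15), signal carriers of the interleukin 6 family, their feedback inhibitor socs3b (240 and 332), stat1a (204 and 289) and the growth factor gene igf2b (48 and 105, 1.02 ± 0.25). The paralog inhibitors socs3a (82 and 53, -0.74 ± 0.25), socs2 (235 and 171) and socs1a (76 and 51), the receptor genes egfra and igf1rb and stat1b were lower. Of 36 named genes, 6 were marked at 6 dpa only and 2 uncut only, against 5.95% and 1.88% of all genes. The score reached 100 at 2 of the 6 and at 0 of the 2, so these shares are not ones of like strength. Binding proteins of insulin-like growth factors made 4 of the 6: igfbp1a (254 tags), igfbp5a (57), igfbp5b (39) and igfbp2b (27). The others were the chemokine receptor gene cxcr4b (61) and the platelet growth factor gene pdgfab (53). The neuregulin receptor gene erbb4a (39) and the lymphatic growth factor gene vegfc (60) had a peak uncut only.

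Other signalling lists differed by member. In the BMP and TGF-beta list, 6 of 31 genes marked in both were higher beyond counting error and 5 lower. In the Notch and FGF list these were 2 and 5 of 22, and in the Wnt and Hippo list 3 and 6 of 30. Over all genes the shares were 13.9% and 15.3%. No gene of these lists was lower on the background scale. In the BMP and TGF-beta list the inhibitors of helix-loop-helix factors id2a (166 and 329 tags, 0.88 ± 0.14) and id2b (66 and 128, 0.84 ± 0.22) were higher and id3 (140 and 104, -0.54 ± 0.19) lower, while smad9 (133 tags) had a peak uncut only. In the Notch and FGF list the Notch transcription factor genes rbpja (93 and 141) and rbpjb (90 and 138) were higher, the modifier gene lfng (117 and 81, -0.64 ± 0.21) and the ligand gene jag2b (118 and 92) lower, and the ligand genes dll4 (88) and jag1a (33) and the receptor genes fgfr4 (74) and fgfr1b (47) had a peak at 6 dpa only. Of its 22 genes marked in both, 17 lay below 0 in tags per kb, with a median of -0.26 (0.19 on the background scale). In the Wnt and Hippo list, axin1 (200 and 289) and the TCF genes tcf7l1a (169 and 247) and tcf7l2 (156 and 212) were higher. The receptor genes fzd1 (40 and 25) and fzd5 (47 and 29) and the TEAD genes tead1a and tead3b were lower. At 6 dpa fzd1 and fzd5 held under 30 tags, with scores of 57.8 and 50.4, near the lowest listed score. The ligand gene wnt11 (71 tags) and lef1 (32) had a peak at 6 dpa only and tcf7 (57) uncut only. Of named genes, 1 of 36, 4 of 29 and 3 of 40 in these lists, in the order given, were marked at 6 dpa only. Uncut only were 1, 0 and 1. Over all genes the shares were 5.95% and 1.88%.

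Red cell genes had the highest list median in tags, 0.23, with 0.13 in tags per kb (0.72 and 0.58 on the background scale). At equal tag level the medians were 0.19 and 0.04. Of 32 genes marked in both, 12 were higher beyond counting error and 2 lower, against 13.9% and 15.3% of all genes, and 4 of the 12 share a peak in pairs. The blood group transporter gene rhd had 184 and 350 tags (0.82 ± 0.13), bcl11aa, a regulator of globin switching, 103 and 201 (0.85 ± 0.17), the mitochondrial iron importer gene slc25a37 299 and 475 (0.56 ± 0.11), carbonic anhydrase gene cahz 217 and 318 and the anion exchanger gene slc4a1a 222 and 303. The globin genes hbaa1 and ba1l share 1 promoter peak (226 and 339 tags), as do si:ch211-5k11.6 and zgc:92880 (55 and 101), so these genes are not independent. The heme synthesis gene alad (205 and 175) was lower and alas2 (266 and 276) stayed within counting error. Red cells of fish keep their nuclei. The erythrocyte markers, with 705 and 897 tags, include cahz, slc4a1a and alas2 of this same list, so their sum gives no separate reading of blood content. The part of blood content in this list was not tested.

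Immune genes were mixed. Of 20 marked in both, 5 were higher beyond counting error and 3 lower, against 13.9% and 15.3% of all genes. The NF-kB genes nfkb2 (103 and 235 tags, 1.08 ± 0.17) and rel (125 and 72, -0.91 ± 0.21) lay on opposite sides, and rela (210 and 262) stayed within counting error. The myeloid factor genes cebpa (177 and 274, 0.52 ± 0.14) and cebpb (185 and 247) were higher, and cd74a, the invariant chain of antigen presentation, lower on both scales (98 and 42, -1.33 ± 0.27). Leukocyte genes coro1a (39), rac2 (41), runx3 (37) and il10ra (22) had a peak at 6 dpa only and 0 genes uncut only. That is 4 and 0 of 27 named genes, against 5.95% and 1.88% of all genes. The 4 scores were between 51.2 and 67.2, near the lowest listed score of 50. The share over all genes is thus not one of peaks of like strength.

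Genes listed as writers, readers and erasers of acetylation had a promoter peak at both times in 40 of 42 named cases. Of the Kat2 family, kat2b stayed within counting error in tags (191 and 220, 0.09 ± 0.14). The acetyltransferase gene kat7a (66 and 137 tags, 0.94 ± 0.22) had the largest value, and others higher were the corepressor scaffold gene rcor1 (48 and 76), kat6a (167 and 249, 0.47 ± 0.14), taf1 (124 and 173) and sin3aa (362 and 505, 0.37 ± 0.10). Deacetylase genes hdac3 (106 and 81, -0.50 ± 0.21) and hdac10 (82 and 63) were lower, and hdac9b (134 tags) had a peak at 6 dpa only. In all, 7 of 40 were higher beyond counting error, near the 13.9% of all genes, and 2 lower (15.3% of all genes), with medians of 0.08 in tags and 0.05 in tags per kb (0.57 and 0.50 on the background scale).

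Single energy genes differed, no more often than genes at large. Of 32 glycolysis genes marked in both, 4 were higher beyond counting error and 2 lower. Of 31 fatty acid oxidation genes, 1 was higher and 4 lower. Over all genes the shares were 13.9% and 15.3%. In the glycolysis list tpi1b (146 and 242 tags, 0.62 ± 0.15), pfklb, of the committed step (106 and 163, 0.51 ± 0.18), gpia (148 and 209) and pgam1b (46 and 73) were higher. The heart lactate dehydrogenase gene ldhba (129 and 92) and mpc2, a subunit of the mitochondrial pyruvate carrier (303 and 115 tags, -1.51 ± 0.16), were lower, mpc2 on both scales, with 402 tags at 9 dpa. In fatty acid oxidation, the carnitine transferase genes cpt1b, the muscle form (180 and 100, -0.96 ± 0.18), and crata (282 and 155, -0.97 ± 0.14) were lower on both scales, as were acaa2 (256 and 177) and hadhab (103 and 70) on the median scale, and the carnitine carrier gene slc25a20 (100 and 167, 0.63 ± 0.18) was higher. The list medians were 0.06 and 0.04 in tags (0.55 and 0.53 on the background scale).

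Genes of the heat shock and unfolded protein responses lay on both sides. The heat shock genes hsp70l (260 and 118 tags, -1.25 ± 0.16), hspa8 (383 and 257, -0.69 ± 0.12), hsp90ab1 (222 and 144, -0.74 ± 0.15) and dnaja1 (414 and 363), the shared promoter of hspd1 and hspe1 (263 and 214) and the endoplasmic chaperone genes hspa5 (206 and 170) and calr (203 and 171) were lower. Higher were sesn2 (115 and 203, 0.71 ± 0.17), chac1 (194 and 276), trib3 (480 and 637), herpud1 and bag3, and ddit4 had a peak of 163 tags at 6 dpa only. In all, 7 of 40 genes were higher beyond counting error and 11 lower, hspd1 and hspe1 being 1 promoter, against 13.9% and 15.3% of all genes, and hsp70l was lower on the background scale as well.

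Inside genes, away from promoters, the loci past these levels were few. The intronic loci of ppm1e (155 and 45 tags, log2 ratio of tags per kb -1.06), dhrs11a (79 and 30, -1.04), the cadherin gene cdh23 (79 and 38, -0.95), nrxn3b (184 and 102, -0.89) and ddrgk1 (111 and 45, -0.89) were the lowest. The highest were rilpl2 (0.81), pald1a (40 and 74 tags, 0.80), the metal-responsive factor gene mtf1 (0.77), zyx, of focal adhesions (135 and 313 tags, 0.71 ± 0.15), and ptk2aa, the focal adhesion kinase gene (113 and 178, 0.71). The last pair are partners at the contacts of cells with matrix. Within introns, the 6 dpa only loci with most tags were those of ncoa4 (300), prkcbp1l (186), ppiab (156), pik3r1, a regulatory subunit of PI3 kinase (154), and ctdp1 (147), and uncut only, among others, those of fancl (209), get4 (205), foxo3b (203) and cap2 (161). In ncoa4 the intronic 6 dpa peak and the uncut promoter peak of 282 tags lay 2151 bp apart.

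One region departed from the genome as a whole. On the long arm of chromosome 4 (from 28 Mb on), 28.2% of 910 loci were uncut only, against 10.8% of the 18851 loci elsewhere, while the 6 dpa only share was 17.9% and 18.0%. Its 446 shared non-promoter loci had median log2 ratios of -0.37 in tags and -0.28 in tags per kb, against -0.03 and -0.05 outside the arm. On the background scale the arm's medians were 0.09 and 0.11. Of 422 loci on the arm with at least 30 tags in each library, 42 were past 2-fold lower in tags and 0 higher. Over the other 24 chromosomes the shared portion was between 67.3% and 75.7% of loci and the median log2 ratio of tags between -0.04 and 0.05. The arm is rich in repeats, and its median uncut locus was weak (70 tags); how far read mapping bears on this was not tested.

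H3K9me3 peaks at acetylated loci were a matter of non-promoter sites. In the uncut H3K9me3 list, peaks overlapped 0.948% of shared promoter loci and 17.8% of shared non-promoter loci. In the 6 dpa list the shares were 3.99% and 24.5%, and that list holds 6216 peaks against 4488. Outside promoters the 6 dpa H3K9me3 peaks covered 21.3% of 6 dpa only loci (19.8 to 22.8) and 24.3% of uncut only loci (22.5 to 26.1). With the uncut H3K9me3 list the order was the opposite, 13.7% (12.49 to 14.99) and 11.9% (10.56 to 13.35). Shared H3K9ac loci with an H3K9me3 peak at both times had a median log2 ratio of H3K9ac tags per kb of -0.23 over 962 non-promoter loci outside the chromosome 4 arm, and 4515 such loci with no H3K9me3 peak had 0.01. The first group had fewer tags uncut (77 against 92), and at equal tag level its median was -0.18. At 251 shared promoters with an H3K9me3 peak at 6 dpa only, the H3K9ac density ratio was 0.16, at a median of 150 uncut tags, and 0.04 at equal tag level.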

How the data were processed

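Per the submitters' processing notes, reads and peaks were handled with DiffBind 1.16.3, MACS 1.4.2 and Bowtie2 2.2.5 on danRer10; their roles and settings are not given in the sources used here. The authors deposited 1 peak list per library, with RefSeq transcripts annotated. Per the file headers, tags are raw counts of reads inside a peak and were not normalized; the deposited score is a −log10 of p multiplied by 10 (lowest value 50, a p of 1e-05); the deposited fold enrichment is a ratio over the caller's background, used only to describe lists. Peak length is in bp.

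Repeated rows were dropped (75509 rows to 16264 peaks uncut, 79151 to 17525 at 6 dpa) and peaks overlapping by 1 bp were merged into loci. Tags and lengths of a library were summed per locus, and per gene over the peaks within 2 kb of its TSS. Log2 ratios had the median over shared loci, or over genes marked in both, taken off. Each library's background is the most frequent local read density that score and tags imply under the Poisson distribution. Counting errors are Poisson and intervals are Wilson (95%); both cover counting error only. No p was computed between libraries. Overlap counts were checked with bedtools 2.31.1 and ratios on simulated data; Python 3.11.15 was used with pandas 2.3.3 and scipy 1.17.1. Promoter motifs were not analysed here.

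The members, the 21 gene lists and the rules were chosen with earlier results of these data known. Named genes have ordinary symbols: of the promoter loci in 1 list, the 10 with most tags each way; of shared promoter loci with at least 30 tags in each library, the 8 highest and 8 lowest in tags per kb with tags on the same side of 0; outside promoters, 5 each way likewise; and list members with the largest changes. A few loci that these rules name are not reported here. Of 983 list entries, 617 were named in the peak lists, 573 by symbol and the others through the NCBI table of GRCz12tu, from which no coordinates were taken. A gene that no list annotates was not counted, and 285 of the 10067 genes had no symbol. Lists share some genes. Some also hold genes of other function, such as kcnh6a in the endothelial list, dldh in the Notch and FGF list and trim63 in the red cell list. Counts and medians of these lists include them.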

Additional observations from a re-analysis of the deposited data

How the results depend on the processing

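Of 100 alternative values for the main counts, shares and medians, 59 stayed as reported. Alternatives beyond those planned were chosen after seeing the data. With at least 50% of a peak covered, 85.2% of all and 96.5% of promoter uncut peaks were shared, and 79.0% of 6 dpa peaks. With a score of at least 100 in both lists, the shares of uncut peaks were 91.3% (all), 96.2% (promoter) and 84.3% (non-promoter), and of 6 dpa peaks 82.3%, 87.9% and 74.5%. With lists of equal length they were 83.8%, 96.2% and 72.5% of uncut peaks and 83.8%, 93.2% and 74.7% of 6 dpa peaks. Of the loci in 1 list, 491 at 6 dpa and 333 uncut had a score of at least 100, and of the genes 133 and 31.

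Scaled to the background, 748 shared loci were past 2-fold higher in tags and 43 lower, and 218 and 4 in tags per kb. The median log2 ratio of tags was then 0.49 at promoters and 0.42 elsewhere, where it changed sign, and that of tags per kb 0.45 and 0.33, the latter also with a change of sign. A minimum of 60 tags left 29 loci higher and 73 lower in tags, and 1 and 4 in tags per kb, since fewer loci were tested. Scaled within tag levels, 8 loci were higher and 14 lower in tags per kb, with a non-promoter median of -0.016, and scaled to total tags 43 were lower. The cause of the other shifts was not tested. H3K9me3 peaks covered 7.75% of shared loci uncut and 11.02% at 6 dpa, and 20.3% of uncut only loci at 6 dpa, when 50% of the locus had to be covered. Without the chromosome 4 arm the shares of shared loci were 8.07% and 12.6%, and that of 6 dpa only loci at 6 dpa 16.1%.

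No paired analysis was possible because each side has 1 library and no test was made. Without replicates, differences between hearts, immunoprecipitations and libraries cannot be told apart from those of injury, and the peak lists show nothing below the caller's threshold.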
